A study of Mus musculus with 8 samples.

Results

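The major histocompatibility complex (MHC) block of mouse chromosome 17, taken here as the 4 Mb from 34000000 to 38000000 of GRCm39, held 399 of the 72953 ALKBH5 peaks in 4 deposited eCLIP lists. A peak belonged to the block when its summit, the point of highest signal, lay between these ends. The block was chosen on the numbers of peaks per 1 Mb window in these same lists, as a run of windows with more peaks for the shortened protein. Every comparison of the genotypes inside the block is therefore a description and carries no test. An annotation of this build was not used here, so peaks are given by position and no peak is assigned to a gene, and the name of the block rests on its position alone.

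ALKBH5 is a demethylase that erases N6-methyladenosine on RNA, a modification that influences splicing, export, stability and translation of transcripts. Enhanced crosslinking and immunoprecipitation (eCLIP) fixes a protein to the RNA it touches with UV light and sequences the RNA that is pulled down with it. The mouse MHC, called H2, carries class I genes, which display peptides from inside the cell, class II genes, which display peptides taken up by immune cells, and class III genes between them, a gene-dense mixture of complement, cytokine, heat-shock, chromatin and RNA-processing genes. A RefSeq name table built on an older assembly (GRCm38.p6) lists 262 genes in order from Kifc1, a kinesin motor gene, to Mog, a myelin glycoprotein gene, 160 of them protein-coding and 44 with H2 symbols. In that order Tapbp, H2-K1, Ring1, Tap1, H2-Ab1, Notch4, C4b, Ehmt2, Bag6, Tnf, Ddx39b, H2-D1 and then Pou5f1, the gene of the pluripotency factor OCT4, follow one another. None of these genes could be placed on the peaks.

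The cells were E14TG2a, an established mouse embryonic stem cell line, grown with LIF at 1000 U/ml, the MEK inhibitor PD0325901 at 1 µM and the GSK3 inhibitor CHIR99021 at 3 µM. The wild-type group carried full-length endogenous ALKBH5. The other group, Alkbh5 del-cIDR, carried endogenous ALKBH5 without its C-terminal intrinsically disordered region (cIDR). All cells were crosslinked at 254 nm with 400 mJ per square cm, and nuclei were taken for the libraries. Each genotype had 2 immunoprecipitates, with 1 peak list each, and 2 inputs that were not analysed here. Whether the replicates were separate cultures, and whether the del-cIDR line was 1 clone, is not stated in the labels, so p-values measure only the spread between these libraries. Read numbers behind the lists are unknown. Whole lists held 16636 to 19892 peaks.

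Far more peaks of the shortened protein than of the full-length protein lay in the block. The full-length lists had 62 and 56 peaks there, and the del-cIDR lists had 141 and 140. The replicates of a genotype lay close together and the genotypes were far apart. Full-length averaged 59.0 ± 4.24 and del-cIDR 140.5 ± 0.707 peaks (SD, n = 2 each), a ratio of 2.38. As a share of each list the block made up 0.312% and 0.337% for full-length and 0.802% and 0.743% for del-cIDR. Peaks covered 33.7 and 21.8 kb of the block in the full-length and 68.5 and 72.9 kb in the del-cIDR lists. Outside the block the lists averaged 18205 ± 2298 and 18072 ± 889.5 peaks (SD, n = 2 per genotype), so list length outside the block was close in the genotypes. The ratio was lower once neighbouring peaks were joined. With the peaks of a library that lay within 5 kb joined, 34 and 31 full-length and 62 and 61 del-cIDR peaks were left, a ratio of 1.89. The part of peak density in this fall was not tested.

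The difference was spread over most of the block but not evenly. In the 250 kb window from 34 to 34.25 Mb the full-length lists had 10 and 6 summits and the del-cIDR lists 26 and 31. The next window held 7 and 6 against 6 and 7, so the excess stopped there. Between 34.75 and 35.5 Mb all 3 windows were higher in del-cIDR. Summits numbered 2 and 2 against 9 and 9 in the window from 34.75 Mb. From 35 Mb they were 7 and 6 against 16 and 13, and from 35.25 Mb 10 and 11 against 21 and 16. The 3 windows from 35.75 to 36.5 Mb followed the same direction, with 2 and 2 against 10 and 9, then 10 and 9 against 14 and 19, then 1 and 0 against 5 and 7. From 37.25 Mb there were 5 and 10 summits for full-length and 26 and 21 for del-cIDR.

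Other windows were poor in peaks of either genotype. No summit of any library lay between 35.5 and 35.75 Mb or between 37.75 and 38 Mb. The longest stretch without a summit ran for 387 kb, from 36775059 to 37161821, and the next for 369 kb, from 34339239 to 34707990. From 37 Mb the counts were 3 and 2 for full-length and 2 and 1 for del-cIDR, and from 37.5 Mb they were 2 and 1 against 1 and 1.

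**Figure D1:**
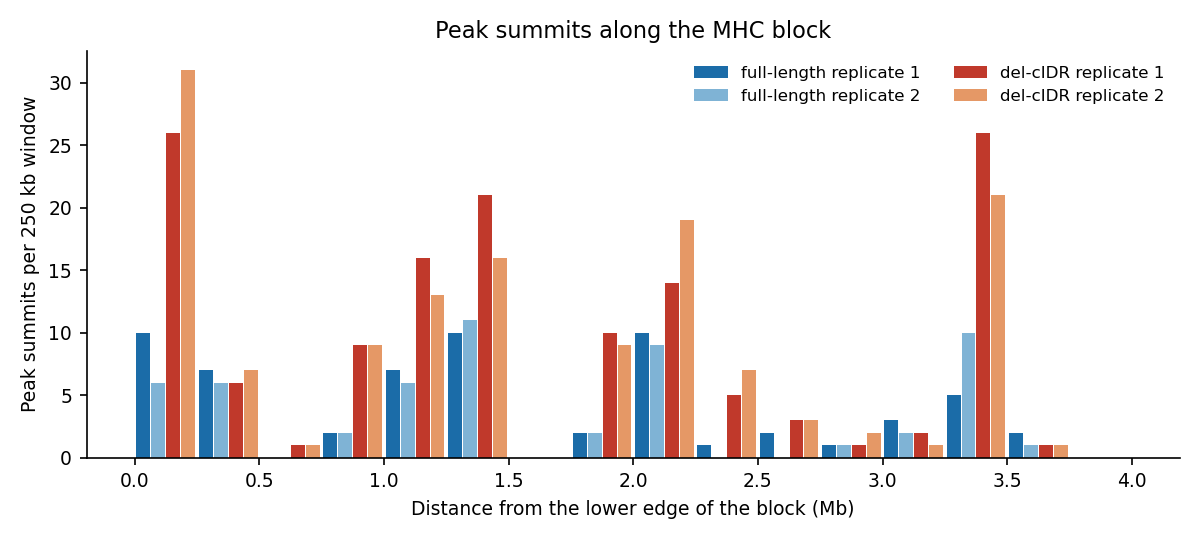
Peak summits per 250 kb window (vertical axis) by distance from the lower edge of the MHC block in Mb (horizontal axis), with 1 bar for each of the 4 libraries. The del-cIDR bars reach 26 and 31 in the window at the left edge and 26 and 21 at 3.25 Mb from it, while no full-length bar passes 11.

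Of the 16 windows, 13 held at least 4 summits over the 4 libraries. In 9 of these 13 both del-cIDR replicates lay above both full-length replicates in summits per 10000 summits of the list. This happened in 36.7% of all 4529 such windows of the series, and since the block was picked on this contrast nothing is read from the 9. In 2 windows both full-length replicates were above both del-cIDR replicates, against 29.8% of all such windows. Both of these rested on the scaling, since neither was apart in plain counts. With peaks of at least 4-fold enrichment only, 6 windows held enough summits and 5 of them were higher in del-cIDR. With windows of 100 kb, 14 of 21 were higher in del-cIDR. The share over all windows of the series is not given for these settings, so nothing is read from these counts either.

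Few summits lay right beside the edges of the block, but the windows on both sides of the lower edge were higher in del-cIDR. The lowest summit inside was at 34000035 in full-length replicate 1, only 0.034 kb from the edge, and the other 3 lists began 36.3 to 37.2 kb inside. The nearest summits below the edge lay 105 to 114 kb outside it in all 4 lists. At the upper edge the last summits lay 337 to 422 kb inside and the next ones 197 to 887 kb outside. Just below the block a window had 5 and 5 summits for full-length and 10 and 10 for del-cIDR, and the one before that held 21 and 26 full-length and no del-cIDR summit. Leaving out 250 kb at each end lowered the ratio of del-cIDR to full-length peaks from 2.38 to 2.20.

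In the block, as in the rest of the genome, most regions found in both del-cIDR replicates had no full-length peak. Most regions of the block found in both full-length replicates also had a del-cIDR peak, which the choice of the block favours. Peaks of the 4 lists that overlapped by at least 1 bp were merged into 212 regions in the block. Both del-cIDR replicates and no full-length replicate had a peak at 61 of them, which is 28.8%, against 17.7% of all 43029 regions of the series. The reverse held at 11 regions, or 5.19%, against 17.5% of all regions. All 4 libraries had a peak at 19 regions, or 8.96%, against 4.70% of all regions. A single library had a peak at 100 regions, of which 21 and 6 came from full-length replicates 1 and 2 and 37 and 36 from the del-cIDR replicates. Of the genotype-only regions 84.7% belonged to del-cIDR in the block, a share that the choice of the block favours, against 50.03% elsewhere in the genome.

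The composition can also be read from each protein's own regions. Among 33 regions with a peak in each full-length list, 11 (33.3%) lacked any del-cIDR peak, against 72.0% of the 10474 such regions outside the block. Among 90 regions with a peak in each del-cIDR list, 61 (67.8%) lacked any full-length peak, against 69.3% of 10891 outside. The full-length share was thus far below that of the rest, and the del-cIDR share close to it. The block was picked for many del-cIDR peaks, and this choice favours such an asymmetry, so it is a description only. The same holds for single peaks. Over the 4 pairs of lists, 41.9 to 58.9% of full-length peaks in the block overlapped a del-cIDR peak, against 15.8 to 21.8% outside. In the other direction 18.4 to 22.1% of del-cIDR peaks overlapped a full-length peak, against 18.5 to 19.8% outside. The 11 full-length-only regions became 20 without full-length replicate 1 and 32 without full-length replicate 2, and the 61 del-cIDR-only regions became 100 and 107 without del-cIDR replicates 1 and 2, since a region then needed 1 peak in place of a pair.

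**Figure D2:**
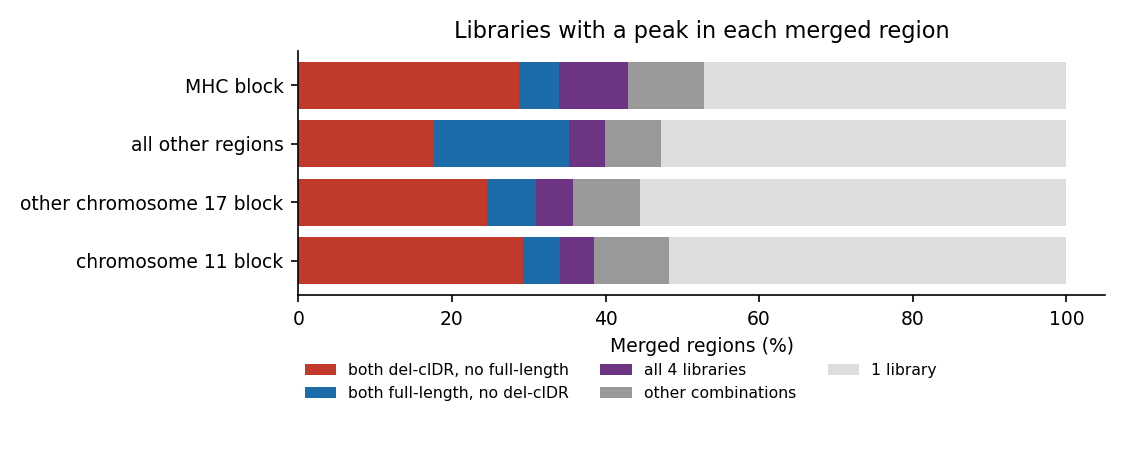
Share of merged regions (horizontal axis, percent) by the libraries that had a peak there, for the MHC block, all other regions of the series, a block of chromosome 17 from 25 to 29 Mb and a 7 Mb block of chromosome 11 from 96 Mb. In the MHC block 28.8% of regions were del-cIDR-only and 5.19% full-length-only, against 17.6% and 17.6% in all other regions.

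Genotype-only regions lay close to peaks of the other genotype. The median distance from a del-cIDR-only region to the nearest full-length peak was 4.64 kb in the block (quartiles 1.16 and 9.72 kb, n = 61), against 19.9 kb outside (quartiles 5.85 and 76.5 kb, n = 7548). A full-length peak lay within 10 kb of 46 of the 61, or 75.4%, against 35.7% outside. All 11 full-length-only regions had a del-cIDR peak within 10 kb, at a median of 1.37 kb, against 37.3% and a median of 18.4 kb for the 7538 outside. Full-length-only regions lay in 4 windows, and 41 of the 61 del-cIDR-only regions lay in windows without any. Peaks of every list were also denser in the block than outside it, as given further on, and the part of this density in the distances was not tested.

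Regions of the block were grouped into patches. Joining regions at most 10 kb apart gave 48 patches, of which 15 held a single region. Patches were not counted outside the block, so the grouping is not read as a trait of the block. The 5 patches with at least 10 regions covered 3.77% of the block and held 67 of the 212 regions (31.6%), 25 of them del-cIDR-only. These patches had 18 and 24 full-length and 51 and 51 del-cIDR peaks. The patch with the most regions, 17 over 36.5 kb at chr17:37357020-37393474, had 2 and 8 full-length and 19 and 12 del-cIDR peaks, with 8 del-cIDR-only and no full-length-only region. The patch at chr17:36199399-36228800 was emptier still in full-length, with 0 and 2 peaks against 8 and 13. Balance was seen at chr17:35354360-35379900, where the lists had 8 and 8 full-length and 9 and 8 del-cIDR peaks and where 3 regions each were del-cIDR-only, full-length-only and shared by all 4 libraries. Large patches thus ranged from equal peak numbers to a clear del-cIDR excess.

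The best ranked del-cIDR-only regions clustered in the window from 37.25 to 37.5 Mb. Ranks are by the authors' −log10 q within a list, and the fold enrichments are the authors' own values for a peak over the background of their peak caller. Of the 10 leading del-cIDR-only regions, 6 lay in that window, 3 in the window from 34 Mb and 1 in the window from 34.25 Mb. The leading region, chr17:37313672-37314896, was 1225 bp wide and ranked 247 and 228 in the del-cIDR lists, with 2.95-fold and 3.33-fold enrichment. It was the only peak of the block among the 500 highest ranked of either del-cIDR list. Its summits were at 37313882 in both replicates, so the lists placed it at the same base. A second region, chr17:37315348-37316015, followed 0.5 kb further on with ranks 1180 and 1020.

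The region next along the chromosome was shared. At chr17:37320439-37321654 all 4 libraries had a peak, with ranks 504 and 572 in the full-length lists and 1044 and 1255 in the del-cIDR lists. This was the best ranked peak of the block in both full-length lists. Enrichment there reached 3.18-fold and 2.77-fold for full-length and 2.18-fold and 2.10-fold for del-cIDR. A shared site and del-cIDR-only sites thus lay within 8 kb of each other.

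Further regions of this window belonged to del-cIDR alone at chr17:37357020-37357441, with ranks 1008 and 1115, and at chr17:37360591-37361347, chr17:37361507-37362317 and chr17:37374153-37374613, with ranks from 1459 to 2560. Peaks of the window spanned 137 kb, from 37268280 to 37404954. Over the 4 libraries their fold enrichment ranged from 1.54 to 5.07, so these were low and densely spaced peaks. Full-length replicate 2 had 10 peaks here and replicate 1 had 5, a difference between replicates that was small beside the 26 and 21 del-cIDR peaks.

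**Figure D3:**
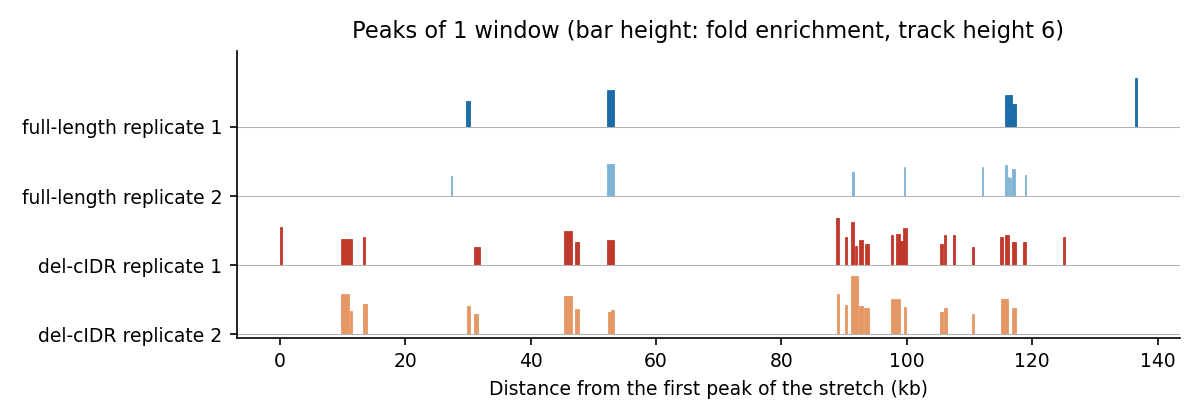
Peaks of the window from 37.25 to 37.5 Mb in the 4 libraries, by distance in kb from the first peak (horizontal axis). Each bar spans a peak and its height is the authors' fold enrichment, with 6-fold as the height of a track. The del-cIDR tracks hold 26 and 21 peaks and the full-length tracks 5 and 10.

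The other leading del-cIDR-only regions lay near the lower edge. They were chr17:34173755-34174541, with ranks 1534 and 1052, chr17:34040855-34042108, with ranks 1472 and 1383, and chr17:34103663-34104096, with ranks 1468 and 1668. They were 434 to 1254 bp wide and had 2.72-fold to 4.21-fold enrichment. A different kind of site was chr17:34292396-34292697, only 302 bp wide, ranked 1279 and 1980 and enriched 23.7-fold and 10.2-fold. Only 4 of the 61 del-cIDR-only regions had 4-fold enrichment or more in both replicates, 6.56% against 25.5% of such regions outside the block. Besides the site just named these were chr17:34148690-34152394, chr17:34707720-34708078 and chr17:34947878-34948180, and the last 2 were narrow, at 359 and 303 bp. The first of them, 3705 bp across, was the widest merged region of the block and held 4 and 2 peaks of the del-cIDR replicates.

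The leading full-length-only regions lay in the middle of the block. Of the 5 best ranked, 4 were in the window from 35.25 to 35.5 Mb. They were chr17:35376588-35376951, with ranks 1667 and 1742, chr17:35462273-35462660, with ranks 1938 and 1936, chr17:35377805-35378265 and chr17:35378619-35378958. Enrichment was 2.10-fold to 3.22-fold over these 4 regions. The fifth was chr17:36170097-36170654, with 3.20-fold and 3.84-fold enrichment. No full-length-only region of the block had 4-fold enrichment in both replicates, against 43.7% of such regions outside.

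The widest full-length peak of the block lay directly before this group and was shared. At chr17:35374118-35376423 all 4 libraries had a peak, and the widest full-length peaks measured 2306 and 1897 bp. Their ranks were 714 and 1043. The 3 full-length-only regions that follow it began 165 to 2196 bp after its end. They thus adjoined a site where del-cIDR also had peaks. Another region of all 4 libraries, chr17:35373148-35373945, ended 0.17 kb before it.

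Regions of all 4 libraries in the block were of 2 kinds. Of the 19, 17 had at most 5.40-fold enrichment in every library and were 336 to 2306 bp wide, with a median of 798 bp. The remaining 2 were narrow, at 304 and 308 bp, and passed 10-fold in at least 1 library. At chr17:37577812-37578119 the enrichment was 8.95-fold and 11.2-fold in full-length and 41.6-fold and 32.9-fold in del-cIDR replicates, the highest values of the block in each of the 4 lists. At chr17:36767434-36767737 it was 4.11-fold and 5.15-fold in full-length and 17.9-fold and 14.9-fold in del-cIDR replicates. Folds of different lists share no common scale, so the order of the genotypes at these sites is given as deposited. The median width of the 19 merged regions was 774 bp, against 304 bp for the 2003 regions of all 4 libraries outside the block.

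At the shared regions the covered lengths of the genotypes were close. Full-length peaks covered a median of 588 and 479 bp at the 19, and del-cIDR peaks 609 and 622 bp. Both del-cIDR replicates covered more than both full-length replicates at 9 of the 19, and the reverse held at 3. Outside the block these shares were 68.4% and 14.0%. Median covered lengths there were 298 and 244 bp for full-length and 301 and 303 bp for del-cIDR. They lay close to the minimum peak widths of the lists, 297 and 243 bp for full-length and 300 and 301 bp for del-cIDR. The part of these unequal minimum widths in the shares was not tested. The summits of the replicates lay a median of 77.0 bp apart for full-length and 42.0 bp for del-cIDR at the 19, and summits of different genotypes 79.0 bp apart. At the 61 del-cIDR-only regions the summits of the replicates were a median of 20 bp apart, against 34 bp outside the block, and 65.6% were within 50 bp, against 56.7% outside.

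Del-cIDR peaks in the block were wider than those elsewhere in the same list, and full-length peaks were not. Median widths were 418 and 413.5 bp for del-cIDR, against 324 and 330.0 bp in the rest of those lists. They were 374 and 287 bp for full-length, against 379 and 291 bp. The difference from the rest was thus 94 and 83.5 bp for del-cIDR and -5 and -4 bp for full-length. Over the 4 libraries it averaged 42.1 ± 54.0 bp (SD, two-sided exact sign-flip permutation p = 0.5, adjusted p = 0.611). With 4 libraries this test cannot go below 0.125, and adjusted values are Benjamini-Hochberg over 11 such tests. Of these, 1 was on peak density, and its p is not given because peak numbers chose the block. Counting the density test among the 11 makes most of the other adjusted values slightly lower. The libraries moved in opposite directions, so no common shift was found. Among peaks of at least 4-fold the mean difference was 3.12 bp. Del-cIDR medians were also above the rest in other blocks picked for many del-cIDR peaks. They were 368 and 393 bp in the block of chromosome 17 from 25 to 29 Mb. In the 7 Mb block of chromosome 11 from 96 Mb they were 347 and 374 bp. Full-length medians were 411.5 and 295 bp in the former and 365 and 285.5 bp in the latter.

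The narrowest peaks were scarce in the block. Peaks at the minimum width of their list made up 5.67% and 5.71% of del-cIDR peaks in the block, against 28.4% and 26.8% in the rest. For full-length these shares were 4.84% and 10.7%, against 12.5% and 17.1%. In the chromosome 17 block from 25 Mb they were 15.6% and 10.8% for del-cIDR and 10.8% and 11.3% for full-length. In the chromosome 11 block they were 15.7% and 15.7% for del-cIDR and 10.4% and 21.25% for full-length. The del-cIDR shares were thus below the rest in those blocks too. Peaks of 1 kb or more made up 11.3% and 5.36% of full-length peaks in the block, against 11.5% and 6.06% in the rest. For del-cIDR they made up 4.26% and 7.86%, against 1.83% and 2.53%, so they were commoner in the block. Their del-cIDR shares were 3.1% and 3.8% in the chromosome 17 block from 25 Mb. In that of chromosome 11 they were 3.8% and 5.2%, so both blocks also exceeded the rest. Peaks of 2 kb or more numbered 1 and 0 for full-length and 1 and 1 for del-cIDR in the block, too few to compare. The widest del-cIDR peaks measured 2041 bp, at chr17:34149337-34151377, and 2293 bp, at chr17:34148690-34150982.

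Peaks in the block had low enrichment in all 4 libraries. The median fold enrichment was 2.61 and 2.66 in the full-length and 2.73 and 2.796 in the del-cIDR replicates, against 3.81, 3.61, 3.18 and 3.16 in the rest of the same lists. Peaks of at least 4-fold made up 11.3% and 12.5% of full-length and 13.5% and 11.4% of del-cIDR peaks in the block. In the rest they made up 45.9% and 41.8%, and 31.7% and 30.5%. The share was lower in the block in 4 of 4 libraries, by a mean of -25.3 ± 7.996 percentage points (SD, n = 4). The two-sided exact sign-flip permutation p was 0.125, the smallest possible, and 0.275 after adjustment, so the difference did not pass correction. This comparison was chosen after the values were seen.

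Within their own list the del-cIDR peaks of the block ranked somewhat above the middle. Their median position was the 41.5th and 40.2nd percentile from the top, where 50 is the middle of a list. Full-length peaks lay at 52.3 and 48.1. The mean difference from the rest was -4.48 ± 5.74 percentile points (SD, n = 4, two-sided exact sign-flip permutation p = 0.375, adjusted p = 0.516). The 2000 highest ranked peaks of a list included 11.3% and 10.7% of full-length and 9.93% and 10.7% of del-cIDR peaks of the block. In the rest these shares were 10.1% and 12.0%, and 11.4% and 10.6%, so they were close.

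**Figure D4:**
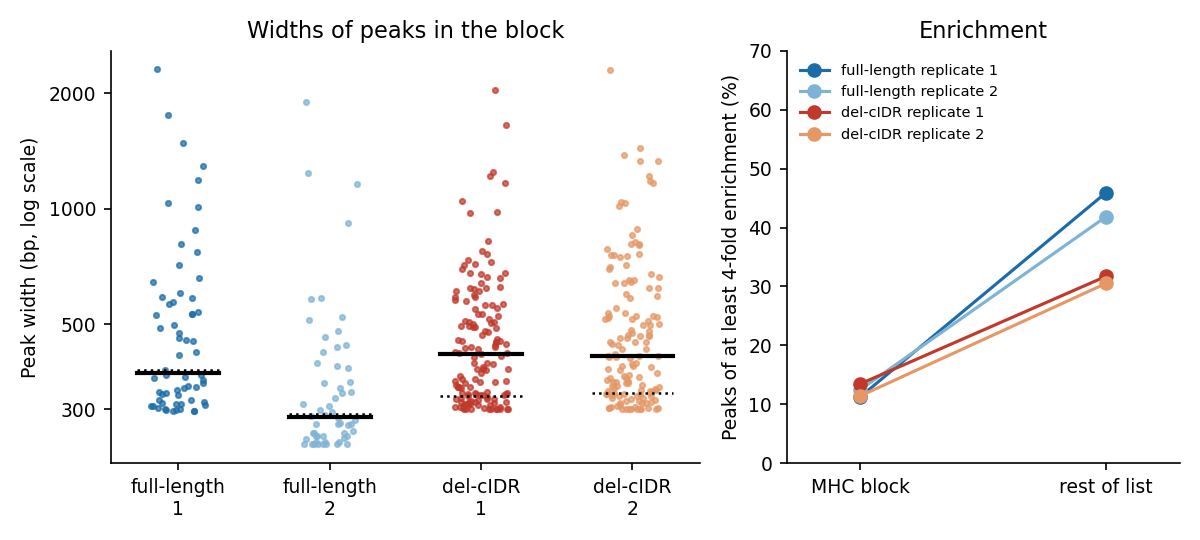
Left, width of every peak of the MHC block in bp on a log axis, by library, with the median of the block as a solid line and that of the rest of the list as a dotted line. Right, percent of peaks with at least 4-fold enrichment in the block and in the rest of the list, 1 line per library. The del-cIDR medians of 418 and 413.5 bp lie above their dotted lines, and all 4 libraries fall to between 11.3 and 13.5% in the block.

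Every list was denser in the block than in the rest of the genome. Full-length lists had 15.5 and 14.0 summits per Mb in the block, against 7.46 and 6.24 in the rest. Del-cIDR lists had 35.25 and 35, against 6.56 and 7.04. On the log2 scale the block exceeded the rest by 1.05 and 1.17 in full-length and by 2.43 and 2.31 in del-cIDR replicates, in 4 of 4 libraries. Peak numbers chose the block, so this is a description and no test is given. Among peaks of at least 4-fold the genotypes parted. Full-length lists had 1.75 and 1.75 such summits per Mb in the block, fewer than the 3.43 and 2.61 in the rest. Del-cIDR lists had 4.75 and 4, more than the 2.08 and 2.15 in the rest. Peaks of 4-fold or more in the block numbered 7 and 7 for full-length and 19 and 16 for del-cIDR.

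Replicate overlap in the block was higher than elsewhere for del-cIDR, lower for full-length replicate 2 and almost unchanged for full-length replicate 1, with no common shift. The other replicate also had a peak at 53.2% and 67.9% of full-length peaks of replicates 1 and 2, against 54.0% and 76.2% outside. For del-cIDR the shares were 69.5% and 67.9%, against 64.4% and 59.6%. The mean difference was 1.05 ± 7.31 percentage points (SD, n = 4, two-sided exact sign-flip permutation p = 1, adjusted p = 1). It became -24.7 points among peaks of at least 4-fold, which in the block are few. The Jaccard index, the shared part of the covered bases, was 0.412 between the full-length and 0.485 between the del-cIDR replicates in the block, against 0.461 and 0.404 for whole lists. Across genotypes it was 0.129 to 0.136 in the block over the 4 pairs, against 0.0606 to 0.0730 for whole lists. Every list was denser in the block, which was chosen by peak numbers, and the part of this density in the index was not tested.

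Blocks of chromosome 17 from 25 to 29 Mb and of 7 Mb of chromosome 11 from 96 Mb, were likewise picked for many del-cIDR peaks. Del-cIDR made up 79.5% of genotype-only regions in the former and 86.0% in the latter, beside 84.7% in the MHC block, and nothing is read from these shares since the choice of the blocks set them. Regions of all 4 libraries made up 4.76% and 4.49% there, against 8.96%. Peaks of 4-fold or more made up 21.5 to 25.8% of the peaks of each list in the block from 25 Mb and 14.9 to 30% in that of chromosome 11, above the MHC block in 4 of 4 libraries each time. The mean differences were -10.9 ± 1.60 and -9.86 ± 6.83 percentage points (SD, n = 4, two-sided exact sign-flip permutation p = 0.125 for each, adjusted p = 0.275). Median peak width in the MHC block exceeded that of the chromosome 11 block in 4 of 4 libraries. The differences were 9 and 1.5 bp in full-length and 71 and 39.5 bp in del-cIDR replicates. Their mean was 30.2 ± 31.8 bp (p = 0.125, adjusted p = 0.275, same exact test). Against the other chromosome 17 block they were -37.5 and -8 bp in full-length and 50 and 20.5 bp in del-cIDR replicates. There the genotypes went opposite ways, with a mean of 6.25 ± 37.6 bp (exact p = 0.75, adjusted p = 0.825). None of these differences passed correction. The comparisons between blocks were not planned and were added to the tests later.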

How the data were processed

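The peak lists of the 4 immunoprecipitates were used as deposited. The submitters' processing notes name the build GRCm39 and the tools MACS2, STAR, cutadapt and UMI-tools. Their versions and settings, how reads with several matches were treated, and whether the inputs served as control are not stated in the labels. H2 genes have near-identical relatives, so peaks on such copies are uncertain. Values deposited by the authors per peak were its ends, its fold enrichment (a ratio to the caller's background), its −log10 q-value and the offset of its summit. No strand is given. Lists named wt were taken as full-length and lists named KI as del-cIDR, the only other genotype.

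Peaks with a summit in the block were counted per library, per 250 kb window and per merged region (1 bp overlap). The rest of the genome for density was all windows between the first and last summit of the numbered, X and Y chromosomes. Differences between the block and the rest within each library were tested with an exact sign-flip permutation test over 4 libraries (Python 3.11.15, NumPy 2.4.6, pandas 2.3.3, SciPy 1.17.1). Counting functions were tested on simulated lists. Named regions were the 10 best ranked del-cIDR-only, the 5 best ranked full-length-only and the 5 best ranked regions of all 4 libraries, the widest peaks and the fullest windows; other sites named were chosen after their values were seen. The block, lists and rules were chosen with earlier results of these data known. Gene lists and sequences were not analysed here, since the tables at hand are on GRCm38.p6.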

Additional observations from a re-analysis of the deposited data

Results flagged for a closer look

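Among the measures planned for a test, 2 split the genotypes by sign. Their shift from the rest of the list had one sign in both full-length libraries and the other in both del-cIDR libraries. Other measures given above parted in the same way, among them the density of 4-fold peaks and the share of peaks of 1 kb or more. The difference between genotypes was not tested. The median peak width in the block minus that of the rest was -5 and -4 bp in full-length and 94 and 83.5 bp in del-cIDR replicates, so the del-cIDR mean exceeded the full-length mean by 93.25 bp. The percent of peaks overlapped by the other replicate, block minus rest, was -0.758 and -8.38 points in full-length and 5.09 and 8.26 points in del-cIDR replicates, a difference of 11.2 points. In full-length replicate 1 the overlap was thus almost unchanged, and the mean shift over libraries changed sign under other thresholds. Peaks were also denser in the block, and the part of this density in the overlap was not tested.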

How the results depend on the processing

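The ratio of del-cIDR to full-length peak numbers, 2.38, stayed above 1 under all 12 alternatives. It was lowest, 1.89, with peaks within 5 kb joined and 2.20 with the block shortened at both ends, and with the replicate block (the ratio within each replicate number, 2.27 and 2.50) it was 2.38. The labels do not say that a replicate number marks a shared culture or day, and over 4529 windows same-numbered libraries deviated from their genotype mean with a correlation of -0.0297, so libraries were not treated as pairs. The del-cIDR share of genotype-only regions ranged from 67.7 to 89.3% over libraries left out in turn, lowest without full-length replicate 2. Windows higher in del-cIDR numbered 5 of 6 with peaks of at least 4-fold and 14 of 21 with windows of 100 kb, in place of 9 of 13. Nothing is read from these counts, since the block was picked on this contrast. The replicate overlap, block minus rest, changed sign with a −log10 q of at least 5 (-1.47 points), with at least 4-fold enrichment (-24.7 points) and over libraries left out (-4.57 to 6.67 points). The list percentile changed sign with the same thresholds, to 0.766 and 8.73 points. The cause of these changes was not tested. The width difference of 42.1 bp fell to 3.12 bp with at least 4-fold enrichment, rose to 287.5 bp with peaks within 5 kb joined, and ranged from 24.8 to 57.8 bp over libraries left out, lowest without del-cIDR replicate 1. The mean density difference, 1.74 on the log2 scale, fell to 0.13 with at least 4-fold enrichment. That mean joined opposite shifts, below the rest in both full-length lists and above it in both del-cIDR lists. The share of 4-fold peaks, -25.3 points, ranged from -29.6 to -22.2 points over its alternatives. A site without a peak in a list is one where no peak was called. Since depth is unknown, this does not show that it was unbound.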
